A study of Rattus norvegicus with 24 samples.

Results

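The EGF, FGF, Wnt and Notch pathways were represented by 83 of the 7263 named genes of a custom rat array, measured by 100 of its 8453 non-control probes. Members were chosen by name only, as probes whose gene name starts with that of an EGF family ligand or receptor, an FGF or its receptor, a Wnt, Frizzled, Sfrp or Dkk, Lrp5 or Lrp6, a Notch, Jagged, Delta-like, Hes or Hey gene. Probes of the major histocompatibility and natural killer complex tables were left out, which removed 1 further probe, that of *Notch4*. A total of 16 member genes had more than 1 probe, and each probe is described on its own.

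The RNA came from paw skin of 12 male BN rats aged 15 weeks. From each rat, an explant was cultured for 3 days with allogeneic lymphocytes of the PVG strain and another with syngeneic BN lymphocytes. Both kinds of lymphocytes had first been kept for 7 days together with BN splenocytes irradiated with 25 Gy, so that the syngeneic group is a co-cultured control and not untreated skin, and the RNA of an explant includes that of any lymphocytes it held. The paired samples of a rat were hybridized together on 2 two-color arrays with exchanged Cy3 and Cy5 dyes, 24 arrays in all, and the comparison asks which of these signaling genes differ between the allogeneic and the syngeneic co-culture.

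These pathways carry short-range signals between the cells of skin. EGF family ligands bind ErbB receptor kinases on keratinocytes, and FGFs, many of them made in the dermis, bind FGF receptors on epithelium and mesenchyme. Wnt proteins bind Frizzled receptors together with Lrp5 or Lrp6 and act through β-catenin or through β-catenin-independent routes, while Sfrp and Dkk proteins antagonize them outside the cell. Notch receptors are activated by Jagged and Delta-like ligands on a neighboring cell, and the Hes and Hey repressors are their classical target genes.

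Per array, 78.3% to 99.7% of the probe spots passed the scanner's background test in Cy3 and 74.8% to 99.9% in Cy5. Of the 100 member probes, 68 passed it throughout, on every array and with either dye. The 12 dimmest, those for *Btc*, *Erbb4*, *Fgf4*, *Fgf5*, *Fgf15*, *Fzd4*, *Wnt2b*, *Wnt3a* and *Wnt10b*, both probes of *Fgf8* and 1 of 2 for *Sfrp4*, passed it on fewer than 12 of 24 arrays in either channel. Rat 8 stood apart from the other animals in its log2 ratios. Over all probes its log2 ratios correlated with those of the other rats at 0.10 to 0.24, against 0.28 to 0.82 among the others. Its own 2 arrays correlated at 0.94, whereas the 2 arrays of each other rat correlated at only 0.13 to 0.80. The SD over probes was 0.71 in rat 8, beside 0.21 to 0.38 in the other rats. Rat 8 gave the lowest or the highest value of the 12 rats for 46 of the 100 member probes and for 53.5% of all probes. The called members are therefore given with and without it.

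All log2 ratios are those of the sample labelled allogeneic over the syngeneic sample of the same rat. Their direction was taken from the dye labels. The study's methods name the dyes in the same way for the arrays with the allogeneic sample in Cy5, and do not spell out the swapped ones. The direction used here is opposite to that of the study's own tables. The study's qRT-PCR on some of the same sample pairs gave the direction of its tables for most tested genes. In its independent explant assays and in skin lesions of transplanted rats, the study's qRT-PCR also found *Aif1* and *Lst1* up-regulated. With the direction used here, the *Aif1* probe averaged -1.27 and was lower in 12 of 12 rats. Which direction is right was not tested here. With the sign turned, every "higher" here reads "lower" and the reverse, while sizes, errors and p-values stay as they are. A probe was called when its p-value from limma, adjusted by the Benjamini-Hochberg method over all 8453 probes, was under 0.05.

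Of the 100 member probes, 14 were called, 11 higher and 3 lower in the allogeneic-labelled sample, each for a different gene. Over the whole array 17.3% of the probes were called, 8.78% higher and 8.48% lower, so that the share of called members, 14%, was near the background. The members called higher were *Egf*, *Egfr*, *Erbb2*, *Fgf2*, *Wnt5a*, *Wnt5b*, *Fzd1*, *Lrp5*, *Hes1*, *Hes6* and *Egfl7*, and those called lower were *Hbegf*, *Wnt7a* and *Fgf15*. No called member reached a mean log2 ratio of 1 in either direction, and the values ran from -0.47 for *Wnt7a* to 0.46 for *Fzd1*. The median over all members was 0.02, beside 0.01 over all probes. At an unadjusted p under 0.05, 25 member probes were higher and 7 lower, 32% of the members, beside 17% and 13.2% of all probes (30.2% in all). Without rat 8, 26 member probes were called, 22 higher and 4 lower, beside 12.5% and 12.2% of all probes (24.7% in all), and all 14 probes called with 12 rats were among them. Without rat 4 the counts were 7 higher and 3 lower, beside 7.11% and 7.76% of all probes (14.9% in all). With the rat as a random block on all 24 arrays, 16 member probes were called higher and 5 lower, beside 10.4% and 8.99% of all probes (19.4% in all).

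**Figure D1:**
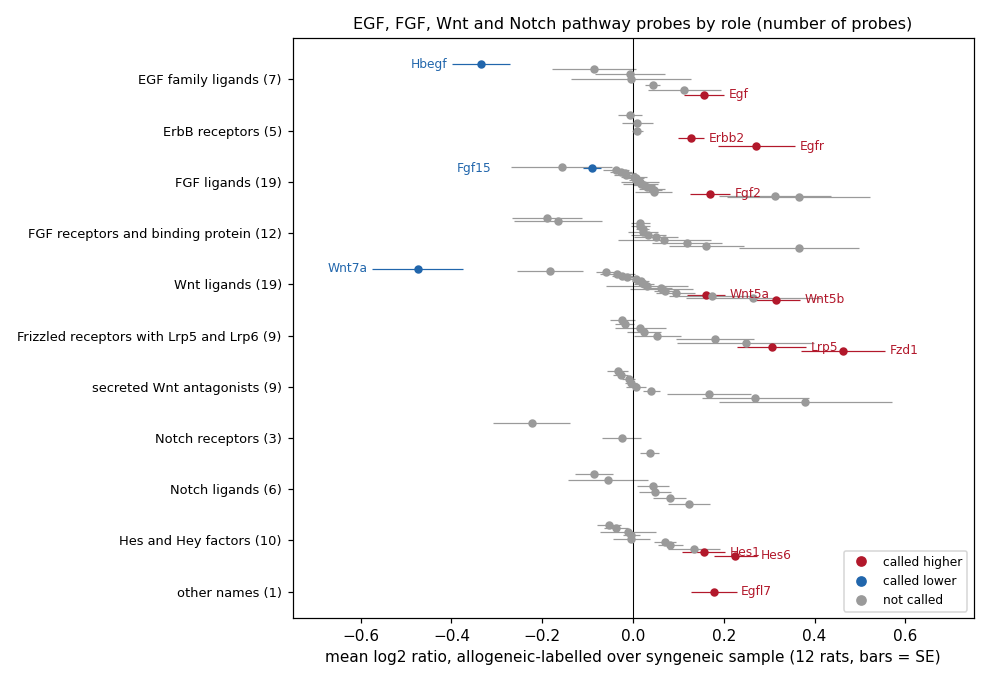
Mean log2 ratio of each of the 100 member probes (x axis, allogeneic-labelled over syngeneic sample, bars are the moderated standard error from limma, n = 12 rats), arranged by role (y axis, number of probes in parentheses). The 11 probes called higher are red, the 3 called lower are blue, and most of the others lie close to 0.

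Some of the cell type markers of these explants differed with the label as well. Of 9 measured macrophage and dendritic cell marker genes, 8 were called lower and none higher, with a median log2 ratio of -0.83 over 10 probes and a summed intensity that was lower in the allogeneic-labelled sample of all 12 rats (14810 to 34480, beside 27280 to 79250). Of 10 T cell marker genes, 4 were called lower, as were 2 of 5 NK cell genes. None of the 4 B cell and 2 muscle genes was called. Of 4 measured dermal fibroblast markers, *Col1a2* and *Pdgfrb* were called higher, with a summed intensity of 6879 to 38980 beside 4676 to 25520. Of 8 endothelial markers, *Cdh5*, *Flt1* and *Pecam1* were called higher, with a summed intensity of 9555 to 35300 beside 8194 to 28800. The keratinocyte list had only *Cdh1* and *Trp63* on the array, neither called, at 4981 to 33310 beside 5806 to 32970. No marker of these lists was below background on all arrays. Their part in the results for the signaling genes was not tested, and fewer cells of a type cannot be told apart from less RNA per cell in such whole-explant RNA.

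Among the 7 probes for EGF family ligands, 1 was called in each direction. *Hbegf* encodes heparin-binding EGF-like growth factor, which keratinocytes release at wounds. Its log2 intensity, after normalization within and between arrays, ranged from 8.85 to 11.35 (median 11.01) in the allogeneic-labelled samples and from 9.502 to 11.85 (median 11.15) in the syngeneic ones, the lowest value of both coming from rat 10. Rat 10 also gave the lowest level in both groups for *Egfr*, *Erbb2*, *Fgf2*, *Wnt5a*, *Wnt5b*, *Fzd1*, *Hes1*, *Hes6* and *Egfl7* and the highest for *Wnt7a* and *Fgf15*, so that the level ranges of these 12 called probes are set at that end by 1 rat. The groups overlapped, but 10 of 12 rats were lower in the allogeneic-labelled sample, with log2 ratios from -0.65 to 0.06 (median -0.37). The mean was -0.33 ± 0.23 (SD, n = 12, limma adjusted p = 0.0034), it was -0.34 without rat 8, and it was the same to 2 decimals in the arrays that carried the allogeneic sample in Cy5 (-0.33) and close to that in Cy3 (-0.34).

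*Egf*, the founding ligand of the family, was higher in every rat. Its level was 7.21 to 7.55 (median 7.46) in the allogeneic-labelled and 6.86 to 7.44 (median 7.29) in the syngeneic samples. The difference in the 12 rats ran from 0.02 to 0.59, and rat 8 gave the largest of these differences. The mean log2 ratio was 0.16 ± 0.16 (SD, n = 12, limma adjusted p = 0.029), and 0.12 without rat 8. The call ended without rat 3, 4 or 10. The mean was 0.34 from the processed signals and 0.27 (limma adjusted p = 0.054) from the series table.

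The other ligands did not pass the test. *Areg*, which encodes the keratinocyte autocrine factor amphiregulin, had a mean log2 ratio of -0.09 ± 0.34 (limma adjusted p = 0.59) and was lower in 8 of 12 rats, whereas rat 8 stood at 0.79. Without that animal the mean was -0.16 (limma adjusted p = 0.062). *Tgfa*, the gene of transforming growth factor α, showed the same arrangement, with rat 8 at 1.20, the next rat at 0.30 and a mean of -0.0044. The 2 probes for *Ereg* (epiregulin) averaged -0.01 and 0.11, and *Btc* (betacellulin) was dim throughout.

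Among the ErbB receptors, *Egfr* and *Erbb2* were called higher, and *Erbb3* and *Erbb4* were not called. *Erbb2* encodes the ligandless co-receptor of the family. Its level was 9.84 to 11.23 (median 10.80) in the allogeneic-labelled and 9.92 to 10.96 (median 10.63) in the syngeneic samples, so that the groups overlapped widely, yet 11 of 12 rats were higher. The mean log2 ratio was 0.13 ± 0.10 (limma adjusted p = 0.0077), and 0.12 without rat 8, and rat 10, at -0.09, was the exception. *Erbb3*, the kinase-impaired partner of *Erbb2*, had a mean of 0.01 ± 0.12 and was higher in 5 of 12 rats. *Erbb4* reached the background limit on 1 of 24 arrays in each channel.

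*Egfr*, the receptor for EGF, amphiregulin and HB-EGF, had 2 probes that gave different results. The probe called higher measured 9.32 to 11.31 (median 11.16) in the allogeneic-labelled and 9.36 to 11.16 (median 10.92) in the syngeneic samples. Its log2 ratio was positive in 11 of 12 rats and averaged 0.27 ± 0.31 (limma adjusted p = 0.044), with rat 8 at 1.17 and the next rat at 0.38. Without rat 8 the mean was 0.19, with a smaller spread and an adjusted p of 0.0039 from limma. Removing rat 1, 2, 3, 4, 5, 6, 9 or 12 ended the call, and in the arrays with the allogeneic sample in Cy5 the mean was 0.15 (limma adjusted p = 0.25), beside 0.39 in Cy3. The other probe averaged -0.01 ± 0.09. The array annotation places the first on chromosome 14 and the second on chromosome 1. Both carry the gene name *Egfr*, and these placements were not checked, so a difference in locus is not shown.

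FGF ligands had 19 probes for 17 genes, of which *Fgf2* was called higher and *Fgf15* lower. *Fgf2* encodes basic FGF, a mitogen of fibroblasts and endothelium. Its called probe measured 8.08 to 8.92 (median 8.64) in the allogeneic-labelled and 7.90 to 8.76 (median 8.36) in the syngeneic samples. The log2 ratio was positive in 9 of 12 rats, from -0.07 to 0.43, with a mean of 0.17 ± 0.16 (limma adjusted p = 0.019) and of 0.15 without rat 8. The second *Fgf2* probe, 655 bases away, averaged 0.02 ± 0.08 and was not called.

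*Fgf15* is the rodent counterpart of human FGF19, known as a gut hormone of bile acid control. Its signal cleared the background test on only 3 of 24 arrays in the allogeneic-labelled channel and 5 in the syngeneic channel. The log2 ratio was negative in 12 of 12 rats, from -0.21 to -0.01, with a mean of -0.09 ± 0.06 (limma adjusted p = 0.0069), and of -0.10 without rat 8. Its size differed with the processing, with -0.44 from the processed signals and -0.35 from the series table, and a filter on dim probes removes it.

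*Fgf7* encodes keratinocyte growth factor, which dermal fibroblasts supply to the epidermis. It had the highest mean of the FGF ligands, 0.36 ± 0.58 (limma adjusted p = 0.14), and was not called. Rat 8 stood at 1.85 and the next rat at 0.94, 4 rats were below 0, and without rat 8 the mean was 0.23 (limma adjusted p = 0.12). *Fgf18*, which is expressed around hair follicles, averaged 0.31 ± 0.46 with 8 of 12 rats above 0. The ligands that were not called ran from -0.16 for *Fgf23* to 0.36 for *Fgf7*, and 5 of the 19 ligand probes were dim.

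None of the 12 probes for FGF receptors and the FGF-binding protein was called. *Fgfr2*, whose epithelial splice form is the receptor for keratinocyte growth factor, had 3 probes with means of 0.07, 0.02 and 0.02. *Fgfr1*, the main receptor of mesenchyme, averaged 0.02 and 0.03 with its 2 probes, and both of these were positive with the allogeneic sample in Cy3 (0.21 and 0.40) and negative with it in Cy5 (-0.17 and -0.33), each past the threshold of limma in the orientation concerned. *Fgfr4* had the largest mean of this role, 0.37 ± 0.49 (limma adjusted p = 0.078) with 9 of 12 rats above 0, and its second probe averaged 0.16 ± 0.30. Without rat 8, both *Fgfr4* probes were called higher, at 0.41 (limma adjusted p = 0.039) and 0.22 (limma adjusted p = 0.024). *Fgfbp1*, whose product releases FGFs from the matrix, gave -0.17 and -0.19 with its 2 probes, neither called.

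The Wnt ligands, with 19 probes for 17 genes, held the member with the largest decrease. *Wnt7a* is an epithelial Wnt. Its called probe measured 9.80 to 11.23 (median 10.03) in the allogeneic-labelled and 9.97 to 12.04 (median 10.46) in the syngeneic samples. The log2 ratio was negative in 11 of 12 rats, from -0.96 to 0.04, with a mean of -0.47 ± 0.37 (limma adjusted p = 0.0058) and of -0.44 without rat 8. Its size varied between the 3 slides of 4 rats each, with means of -0.18, -0.42 and -0.82, and the mean was -0.31 with the allogeneic sample in Cy5 only. The second *Wnt7a* probe, 1028 bases away, went the other way in 10 of 12 rats, with a mean of 0.07 ± 0.08 that was not called, and without rat 8 it was called higher at 0.09 (limma adjusted p = 0.0099). The difference between the probes averaged -0.54 ± 0.35, and they had the same sign in 1 of 12 rats.

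*Wnt5a* and *Wnt5b* encode related ligands known for signaling that does not use β-catenin, and both were called higher. The called *Wnt5b* probe measured 8.73 to 10.93 (median 10.25) in the allogeneic-labelled and 8.64 to 10.81 (median 9.89) in the syngeneic samples. It was higher in 12 of 12 rats, by 0.03 to 0.74, with a mean of 0.31 ± 0.20 and the lowest adjusted p-value of the members (limma, 0.0017). It was 0.34 without rat 8, and the slide means were 0.35, 0.29 and 0.31. With the allogeneic sample in Cy3 only, the mean was 0.20. Its second probe, 7012 bases away, averaged 0.09 ± 0.15 with 10 of 12 rats above 0 and rat 8 at -0.31. Without rat 8 this probe was called too, at 0.13 (limma adjusted p = 0.0051).

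*Wnt5a* measured 7.85 to 9.67 (median 9.20) in the allogeneic-labelled and 7.82 to 9.54 (median 9.02) in the syngeneic samples. The log2 ratio was positive in 9 of 12 rats, and the 3 others lay at or just below 0, between -0.02 and -0.0044. The mean was 0.16 ± 0.15 (limma adjusted p = 0.018), and it was 0.10 (limma adjusted p = 0.069) with the allogeneic sample in Cy3 only and 0.18 without rat 8.

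Several other Wnt ligands turned on rat 8. *Wnt11* averaged 0.03 ± 0.33, but 11 rats lay between 0.03 and 0.36 and rat 8 stood at -0.97. Without that animal *Wnt11* was called higher at 0.12 (limma adjusted p = 0.017). *Wnt4*, an epidermal Wnt, averaged 0.17 ± 0.34 with rat 8 at -0.69, and 0.25 (limma adjusted p = 0.010) without it. *Wnt6* averaged -0.18 ± 0.26 with rat 8 at -0.97 and was lower in 11 of 12 rats, and without rat 8 it was called lower at -0.11 (limma adjusted p = 0.015). *Wnt10a*, a Wnt of placode and hair follicle epithelium, averaged 0.26 ± 0.55 and was not called with or without rat 8.

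**Figure D2:**
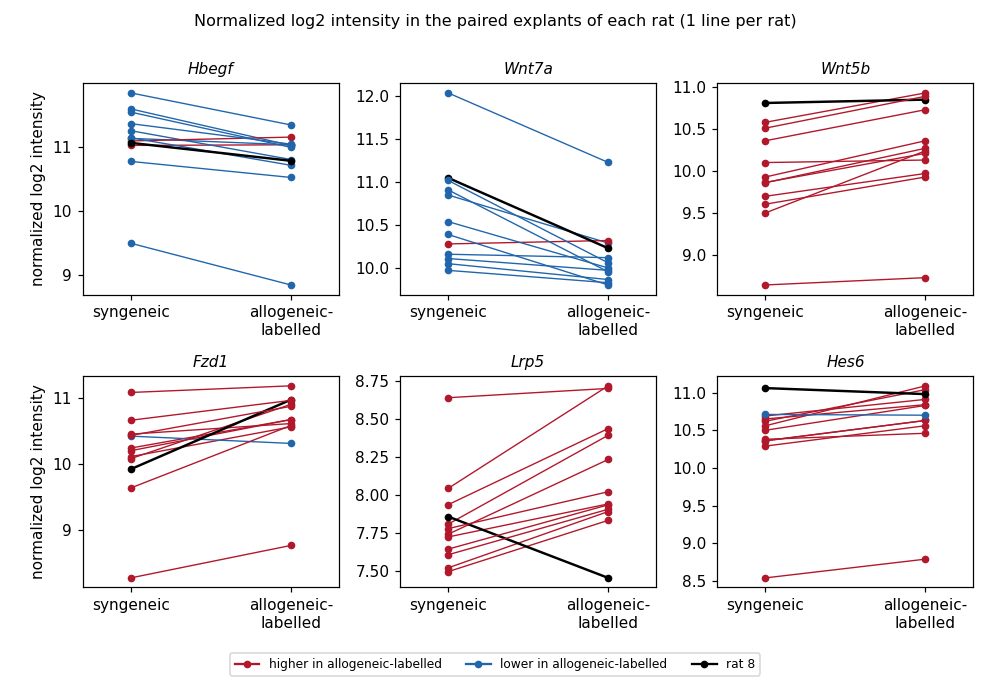
Normalized log2 intensity (y axis) of 6 called genes in the syngeneic and the allogeneic-labelled sample (x axis), with a line for each of the 12 rats. Red lines rise and blue lines fall toward the allogeneic-labelled sample, the black line is rat 8, and in every panel the groups overlap.

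Of the 9 genes for Frizzled receptors and their co-receptors, *Fzd1* and *Lrp5* were called higher. *Fzd1* measured 8.77 to 11.18 (median 10.67) in the allogeneic-labelled and 8.28 to 11.08 (median 10.22) in the syngeneic samples. It was higher in 11 of 12 rats, from -0.12 in rat 3 to 1.05 in rat 8, with a mean of 0.46 ± 0.34 (limma adjusted p = 0.0045) and of 0.41 without rat 8. The slide means were 0.31, 0.53 and 0.55. *Fzd2* had 11 of 12 rats between 0.09 and 0.45 and rat 8 at -0.75. It averaged 0.18 and was not called with all rats, whereas without rat 8 it was called higher at 0.26 (limma adjusted p = 0.00024).

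*Lrp5* and *Lrp6* encode the co-receptors of the β-catenin route. *Lrp5* measured 7.46 to 8.72 (median 7.98) in the allogeneic-labelled and 7.50 to 8.64 (median 7.76) in the syngeneic samples. It was higher in 11 of 12 rats, by 0.06 to 0.67, while rat 8 went the other way at -0.40. The mean was 0.31 ± 0.28 (limma adjusted p = 0.015), 0.37 without rat 8 and 0.47 from the processed signals. *Lrp6* had the most extreme single value of all members, 1.99 in rat 8, whereas the other 11 rats lay between -0.13 and 0.27. Its mean of 0.25 ± 0.56 was not called (limma adjusted p = 0.30), and without rat 8 a smaller mean of 0.09 was called (limma adjusted p = 0.044).

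None of the 9 probes for secreted Wnt antagonists was called. *Sfrp2*, which is strongly expressed in dermal fibroblasts, had the largest mean, 0.38 ± 0.70 (limma adjusted p = 0.20), with values from -0.38 to 1.69. This mean came from 1 orientation, being 0.80 (limma adjusted p = 0.0050) with the allogeneic sample in Cy5 and -0.04 with it in Cy3. *Sfrp1* averaged 0.17 ± 0.34 and, without rat 8, was called higher at 0.24 (limma adjusted p = 0.019). The 2 probes named *Dkk4* on the array gave 0.27 and -0.03, and whether they measure that gene was not checked.

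None of the 9 probes for Notch receptors and ligands was called. *Notch1*, the receptor of the suprabasal epidermis and of T cell development, averaged -0.22 ± 0.31 (limma adjusted p = 0.091) and was lower in 9 of 12 rats, with rat 8 the lowest at -0.73 and a mean of -0.18 (limma adjusted p = 0.12) without it. *Notch2* and *Notch3* averaged -0.03 and 0.04. *Jag1*, the main Notch ligand of epidermis, averaged -0.05 ± 0.32 (limma adjusted p = 0.73), was lower in 9 of 12 rats and stood at 0.80 in rat 8. Without rat 8 its mean was -0.13 (limma adjusted p = 0.084). The 2 probes for *Jag2* gave 0.12 ± 0.16 (limma adjusted p = 0.083) and 0.04 ± 0.12, and without rat 8 the first was called higher at 0.15 (limma adjusted p = 0.027). Both had opposite signs in the 2 orientations, -0.09 for the first and -0.19 for the second with the allogeneic sample in Cy5, and 0.34 and 0.28 with it in Cy3.

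Among the 10 probes for Hes and Hey factors, *Hes1* and *Hes6* were called higher. *Hes6* encodes a factor that counteracts Hes1. It measured 8.79 to 11.09 (median 10.77) in the allogeneic-labelled and 8.54 to 11.06 (median 10.53) in the syngeneic samples. The log2 ratio was positive in 10 of 12 rats, with a mean of 0.23 ± 0.17 (limma adjusted p = 0.0054) and of 0.25 without rat 8, and the slide means were 0.23, 0.23 and 0.21. The 2 exceptions were rat 8 at -0.09 and rat 12 at -0.01.

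*Hes1* encodes the Notch-induced repressor that holds cells in an undifferentiated state. Its called probe measured 9.59 to 12.86 (median 12.55) in the allogeneic-labelled and 9.52 to 12.99 (median 12.39) in the syngeneic samples, and next to rat 10 the lowest levels were 12.33 and 11.96. The mean log2 ratio was 0.16 ± 0.17 (limma adjusted p = 0.038), positive in 9 of 12 rats, and 0.18 without rat 8. This call was the least stable of the 14, since the mean was -0.0047 in the arrays with the allogeneic sample in Cy5 and 0.32 with it in Cy3, and removing rat 1, 3, 4, 5, 6, 9, 11 or 12 ended it. The second *Hes1* probe, 1616 bases away, averaged 0.13 ± 0.21 and had the same sign as the first in 10 of 12 rats, and without rat 8 it was called as well at 0.18 (limma adjusted p = 0.012). Its sign also turned with the dyes, from -0.11 with the allogeneic sample in Cy5 to 0.38 with it in Cy3. *Heyl* and *Hey2* averaged 0.08 and 0.07, with limma adjusted p-values of 0.065 and 0.073. The other Hes and Hey genes lay between -0.05 and -0.0035.

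The promoter of *Hes1* is shown because it is a well-known target of RBPJ, the DNA-binding partner of activated Notch. The 250 bases before the annotated start, on the minus strand of chr11:84213046-84213295 of the GRCr8 build, were taken from RefSeq, and both matches to the letters TGGGAA, a core of RBPJ binding sites, are in capitals. They lie on the same strand and do not mark a head-to-head site pair. Sites with other letters were not searched for, so the marks do not tell whether the promoter holds such a pair.
Hes1: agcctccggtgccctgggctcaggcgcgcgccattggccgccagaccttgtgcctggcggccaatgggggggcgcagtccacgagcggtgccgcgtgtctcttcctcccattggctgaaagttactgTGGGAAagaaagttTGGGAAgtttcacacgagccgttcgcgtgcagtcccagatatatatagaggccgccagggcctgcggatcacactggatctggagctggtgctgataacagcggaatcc
Searched on both strands, TGGGAA occurred in 5 of 8 promoters listed for the Hes and Hey genes and in 22.1% of all 33469 promoters of the same length. These are promoters and not genes, since *Hes7* had 2 listed promoters with 1 match each, and *Hes3* and *Hey1* had none listed. *Hes1*, *Hes5* and *Hey2* had 2 matches each, and *Hes6*, called higher as well, had none. A match of these letters is a description and not a measured binding site.

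*Egfl7*, the only member outside these roles, encodes a secreted protein of endothelial cells with EGF-like repeats. It measured 11.98 to 13.27 (median 12.82) in the allogeneic-labelled and 11.80 to 12.96 (median 12.64) in the syngeneic samples. The log2 ratio was positive in 10 of 12 rats, with a mean of 0.18 ± 0.18 (limma adjusted p = 0.027), and of 0.18 without rat 8. It was 0.07 (limma adjusted p = 0.41) with the allogeneic sample in Cy5 and 0.29 with it in Cy3, and the call ended without rat 4, 5 or 6. Of the endothelial markers, both *Cdh5* probes were called higher too, at 0.28 and 0.38, and the part of endothelial RNA in the *Egfl7* value was not tested.

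**Figure D3:**
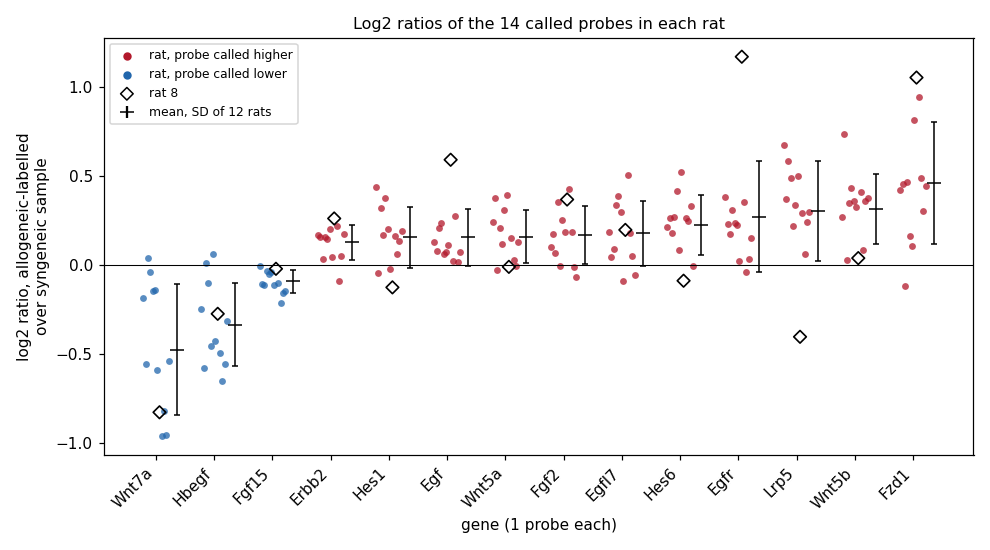
Log2 ratio (y axis, allogeneic-labelled over syngeneic sample) of the 14 called probes (x axis) in each of the 12 rats, with the mean and SD beside them and rat 8 as an open diamond. All 12 rats lie on the same side of 0 for *Egf*, *Wnt5b* and *Fgf15*, and rat 8 is the highest for *Egf*, *Egfr*, *Erbb2* and *Fzd1* and the lowest for *Hes1*, *Hes6* and *Lrp5*.

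In 5 genes, *Egfr*, *Fgf2*, *Wnt5b*, *Wnt7a* and *Hes1*, a called probe stood beside one that was not called. Probes of this array are 60 bases long, and 1 probe of each of these genes is shown so that the measured stretch can be told from its partner. The positions are those of the rn3 build given in the scanner files, and no annotation of that build was used here, so that the exon is not named. For *Fgf2* (chr2:123896714-123896773, plus strand) and *Wnt7a* (chr4:125786805-125786864, minus strand) it is the called probe, and for *Egfr* (chr1:87624802-87624861, plus strand), *Wnt5b* (chr4:155999508-155999567, minus strand) and *Hes1* (chr11:72662727-72662786, minus strand) the one not called.
Fgf2, called higher: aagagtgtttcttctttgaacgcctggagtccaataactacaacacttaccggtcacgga
Wnt7a, called lower: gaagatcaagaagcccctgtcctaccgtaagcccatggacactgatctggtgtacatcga
Egfr, not called: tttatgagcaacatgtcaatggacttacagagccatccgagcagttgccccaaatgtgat
Wnt5b, not called: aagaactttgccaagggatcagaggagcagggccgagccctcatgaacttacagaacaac
Hes1, not called: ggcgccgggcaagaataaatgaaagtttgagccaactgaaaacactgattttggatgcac
None of these shared a run of 20 bases with a probe of a differently named gene on the array. The called probes of *Fgf2* and *Wnt5b* had the larger means of their pairs. The *Egfr* probes differed in the annotated chromosome, which was not checked, and the *Wnt7a* probes in direction. The *Hes1* probes differed by only 0.02 ± 0.14. When the probes of a gene were averaged before the test, 9 member genes were called higher and 3 lower, with *Wnt7a* at -0.20 (limma adjusted p = 0.025), and *Egfr* and *Hes1* were no longer among them.

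**Figure D4:**
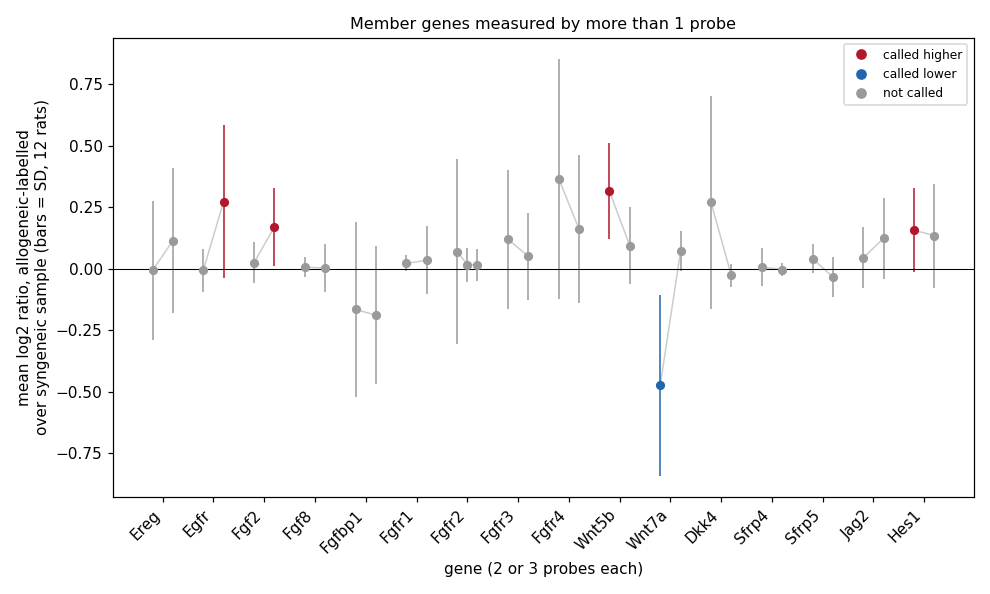
Mean log2 ratio (y axis, allogeneic-labelled over syngeneic sample, bars are the SD over 12 rats) of each probe of the 16 member genes with more than 1 probe (x axis), with probes of a gene joined by a gray line. Called probes are red (higher) or blue (lower), and *Wnt7a* is the gene whose probes lie farthest apart.

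Dye orientation had a visible part in the member values. Only 48 of the 100 member probes had the same sign in both orientations, and the orientations differed by a median of 0.12 on the log2 scale. Taken alone, the arrays with the allogeneic sample in Cy5 called 19 member probes higher and 12 lower, 31 in all, beside 17.1%, 14.3% and 31.5% of all probes. Those with it in Cy3 called 24 higher and 12 lower, 36 in all, beside 15%, 14.6% and 29.6%. Of these, 9 were called in both with the same sign and 6 with opposite signs. Of the 14 members called from both orientations together, 13 had the same sign in each and *Hes1* did not. The means over both orientations, in which a dye effect common to them cancels, are those reported, and all 14 called members kept their sign on each of the 3 slides.

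**Figure D5:**
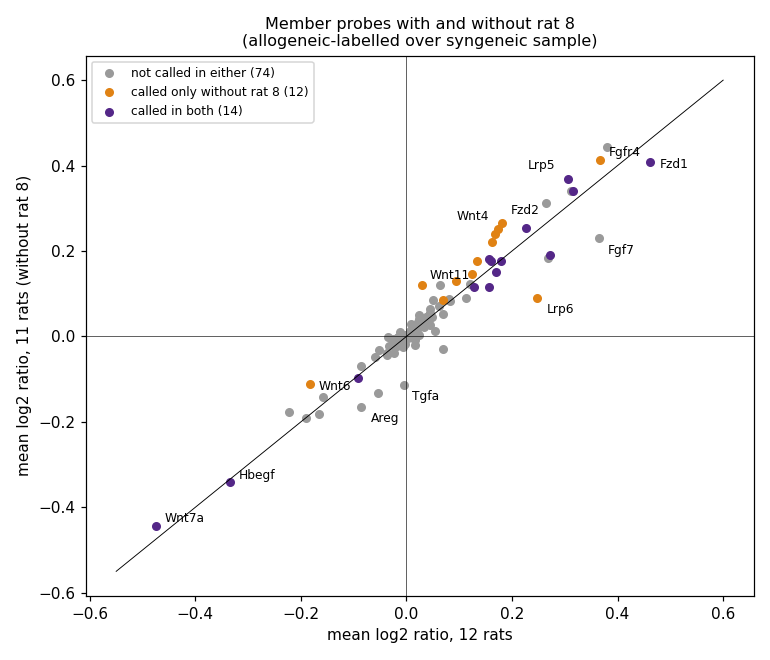
Mean log2 ratio of the 100 member probes over all 12 rats (x axis) and over the 11 rats without rat 8 (y axis), with the line of equality. The 14 purple probes were called in both and the 12 orange probes only without rat 8, and *Lrp6* and *Fgf7* lie farthest below the line.

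Other genes of these pathways were taken from lists and are not among the members, and not all of them act downstream of the receptors. Their probes were called about as often as the probes of the whole array. For the MAPK arm, 28 of 39 listed genes were measured by 33 probes, of which 4 were called higher and 3 lower, with a median log2 ratio of 0.04. The immediate early gene *Egr1* was higher in 12 of 12 rats at 0.49 ± 0.21 (limma adjusted p = 0.00015), as was *Plcg1* at 0.29. All 3 probes of *Grb2*, the adaptor that links receptor kinases to Ras, were called lower, at -0.30, -0.25 and -0.24, in 12 of 12 rats each. *Hras* was called higher with 2 probes, at 0.11 and 0.18.

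For the Wnt arm, 27 of 41 listed genes were measured by 30 probes, with 4 called higher, 1 lower and a median of 0.02. *Ccnd1*, which encodes cyclin D1, was higher in 12 of 12 rats at 0.46 ± 0.23 (limma adjusted p = 0.00042). *Axin2*, the classical feedback target of β-catenin, was called higher at 0.11 ± 0.10 (limma adjusted p = 0.023) in 10 of 12 rats with 1 probe, whereas its second probe averaged -0.02 ± 0.14 (limma adjusted p = 0.79). The corepressor genes *Tle2* and *Tle3* were called in opposite directions, at 0.45 and -0.18, and 1 of the 2 probes of *Apc2* was called higher at 0.10, the other standing at 0.06. For the Notch arm, 19 of 35 listed genes were measured by 23 probes. Both probes of *Numb*, which encodes an inhibitor of Notch, were called lower at -0.11 and -0.13. The shares of the MAPK and Wnt arms, 7 of 33 and 5 of 30 probes, stand beside 17.3% of all probes.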

How the data were processed

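Skin explants of 12 BN rats were compared on 24 two-color Agilent arrays, 2 dye-swapped arrays per rat. The authors deposited scanner files with mean and local background intensities and processed intensities (background-subtracted and dye-normalized) from Feature Extraction 9.5.1.1, and a series table of log2 ratios, with unstated centring and direction, whose columns followed the allogeneic over syngeneic processed ratios (correlations 0.70 to 0.96, column medians -0.03 to 0.02).

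Mean intensities were corrected by normexp (offset 50) and normalized by loess in limma 3.58.1 (R 4.3.3). Control and outlier spots were left out. Swapped arrays were turned by the dye labels, spots averaged per probe and arrays per rat, since both hold the same RNA. Rat means were tested against 0 by limma (n = 12), adjusted over 8453 probes. Levels were taken per channel after loess and Aquantile. Each ratio pairs the explants of a rat, so the comparison is within animals. The test was checked on simulated data.

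The members, role lists and pathway and marker lists were chosen with earlier results of these data known. Named genes are 12 skin genes of the pathways, called genes and, per role without a call, the largest mean. *Wnt11*, *Wnt4*, *Wnt6*, *Fzd2*, *Sfrp1* and the remaining genes were named after their values were seen. The alternatives were other background corrections and normalizations, single orientations, a dim-probe filter, outlier spots kept, slide block, other tests, the series table, gene means and leaving out rats or 1 array. Accessions of 4685 probes matched the RefSeq gene table (GRCr8), which gave newer symbols for the lists. Some list results are not reported here. The number of arrays limits the precision. The fold and p-value columns of the study's own tables were not used.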

Additional observations from a re-analysis of the deposited data

How the results depend on the processing

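All settings apart from those named here left the counts of called members, 11 higher and 3 lower, within 1.5 times. With only the arrays that carried the allogeneic sample in Cy5, 19 members were called higher and 12 lower (31.5% of all probes called), and with only those that carried it in Cy3, 24 and 12 (29.6% of all probes), whereas 9 members were called in both with the same sign. With the rat as a random replicate block on 24 arrays, 16 were called higher and 5 lower (19.4% of all probes). Leaving out each rat in turn gave 7 to 22 members higher and 3 to 4 lower, with the lowest count without rat 4 and the highest without rat 8. The cause of these differences was not tested.

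*Hbegf*, *Erbb2*, the called probes of *Fgf2*, *Wnt5b* and *Wnt7a*, *Fzd1* and *Hes6* kept their direction and their call under all 25 alternatives that fitted single probes. Of the other 7, *Egfr* lost its call in 11 of 25, *Hes1* in 15, *Egfl7* in 5, *Egf* in 4 and *Lrp5*, *Wnt5a* and *Fgf15* in 1 each (24 alternatives for *Fgf15*, which the dim-probe filter removes). *Egf* lost it without rats 3, 4 or 10 and in the series table (log2 ratio at least 0.12 throughout), and *Egfl7* without rats 4, 5 or 6. With the allogeneic sample in Cy5 only, 12 of the 35 named probes changed sign, 4 of them called in either fit, namely the 2 probes of *Fgfr1* (-0.17 and -0.33), the second of *Jag2* (-0.19) and the called one of *Hes1* (-0.0047). With it in Cy3 only, 4 changed sign, none of them called. Slides entered as a block took away the calls of *Egfr* and *Hes1*. Dim probes limit the result for *Fgf15*.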
